A study of Mus musculus with 14 samples.

Results

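The 42 genes described here are named as subunits and assembly factors of mitochondrial complex I and were measured in a mouse pre-B cell line. They were chosen by name. All probe sets annotated with exactly 1 symbol of the form Ndufa, Ndufb, Ndufc, Ndufs, Ndufv, Ndufaf or Ndufab followed by a number were taken, and the probe set with the highest mean over the arrays stood for each gene. The rule found 47 probe sets for 42 of the 19938 genes measured. Of these genes 35 are counted by name as subunits (6 core and 29 accessory, Ndufa4 among the latter) and 7 are the assembly factors Ndufaf1 to Ndufaf7. A further 3 probe sets name a member beside another symbol and were not used. Apart from that mean, which picked the probe set of a gene, the rule uses names only.

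The cells, BH1-Bcl2-Ik1ER, come from the BH1 line, which lacks Ikaros, a transcription factor that restrains growth of B cell precursors. They had received retroviruses for Bcl2, which blocks apoptosis, and for an Ikaros-estrogen receptor fusion, and were sorted for both. The fusion is switched on by 4-hydroxytamoxifen (4OHT, 100 nM). IL-7, the growth cytokine of early B cells, came from conditioned medium (8%), and withdrawal meant leaving that medium out. Each of 7 groups has 2 arrays, and their RNA came from separate experiments numbered 1 and 2. Cells were taken at time 0 (with IL-7, without 4OHT), 6 h with IL-7 plus 4OHT, 6 h of withdrawal plus 4OHT, 24 h with IL-7 alone, 24 h with IL-7 plus 4OHT, 24 h of withdrawal alone, and 24 h of withdrawal plus 4OHT. Every group carries Bcl2 and the fusion. No array of a line without the fusion was used here, and no 6 h group lacks 4OHT, so 4OHT and 6 h of culture cannot be told apart against time 0.

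Complex I, NADH:ubiquinone oxidoreductase, is the entry point of the respiratory chain. It takes electrons from NADH, passes them through a flavin and iron-sulfur clusters to ubiquinone, and pumps protons across the inner mitochondrial membrane. The core subunits carry out the reaction, and some of them are encoded by mitochondrial DNA. Accessory subunits surround that core and are needed for its stability. Assembly factors help to build modules of the enzyme and are absent from the finished complex. Proliferating lymphoid cells make new mitochondria as they grow and divide.

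Promoter sequence is shown for 4 genes that stand at the ends of the changes described below, Ndufaf4 and Ndufaf2 among those that fell and Ndufaf3 and Ndufa6 among those that rose. Each run holds the 150 bases before a transcript start in RefSeq (GRCm38.p6), 5′ to 3′ on the gene's strand, with matches to the NRF1 core letters GCGCATGC, on either strand, in capitals. NRF1 is a transcription factor known for driving nuclear genes of the respiratory chain. The regions are chr4:24897933-24898082 on the plus strand for Ndufaf4, and chr13:108158626-108158775, chr9:108567437-108567586 and chr15:82354292-82354441 on the minus strand for Ndufaf2, Ndufaf3 and Ndufa6. For Ndufaf2 that start lies inside the outer bounds of the gene in RefSeq, so the last bases of its run lie within the gene, while the other runs end just before their genes.
Ndufaf4: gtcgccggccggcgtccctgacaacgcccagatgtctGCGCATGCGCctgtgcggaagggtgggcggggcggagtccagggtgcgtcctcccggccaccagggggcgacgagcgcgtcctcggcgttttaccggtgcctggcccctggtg
Ndufaf2: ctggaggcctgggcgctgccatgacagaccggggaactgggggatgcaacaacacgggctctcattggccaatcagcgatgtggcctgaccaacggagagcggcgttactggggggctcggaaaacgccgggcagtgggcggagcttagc
Ndufaf3: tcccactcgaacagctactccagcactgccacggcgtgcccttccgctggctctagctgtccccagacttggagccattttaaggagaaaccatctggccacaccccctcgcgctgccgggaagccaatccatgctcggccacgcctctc
Ndufa6: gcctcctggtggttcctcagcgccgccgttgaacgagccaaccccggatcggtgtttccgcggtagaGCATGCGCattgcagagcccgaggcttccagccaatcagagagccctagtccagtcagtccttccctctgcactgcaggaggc
The capitals in Ndufaf4 are 2 overlapping matches, 1 on each strand. Over windows of 250 bases before to 50 after the start, the table held 38 of the 42 members, and GCGCATGC was found in 5 of them (13.2%): Ndufa11, Ndufa6, Ndufa8, Ndufaf4 and Ndufaf5. The same letters were found in 824 of 27025 genes with such a window (3.05%). The YY1 letters AAGATGGC were found in 7 members (18.4%), all subunits and all between 23 and 39 bases after the start, against 3.19% of all genes. The E-box CACGTG was found in 2 members (5.26%, against 8.09%) and the ETS letters CCGGAAGT in 1 (2.63%, against 4.31%). GCGCATGC overlaps its own reverse complement and CACGTG is its own, and no match of 1 motif overlapped a match of another. A match describes these letters only. Genes that fell and genes that rose both hold GCGCATGC, as Ndufaf4 and Ndufa6 show.

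Values are log2 RMA levels as deposited, so a difference of 1 is a doubling. RMA levels of different probe sets are not on a common scale of molecules. The 42 members had means over the 14 arrays from 7.48 (Ndufaf6) to 12.90 (Ndufc2), with a median of 10.74 against 7.52 for all genes, and 41 of 42 lay above the median gene. Of the 6 members with a mean below 9, 4 were assembly factors. Array medians lay between 7.23 and 7.43. The B lineage markers Cd79a, Cd79b, Ebf1, Igll1, Pax5, Vpreb1 and Vpreb2 had medians of 9.41 to 13.73, and 22 of 22 markers of T, myeloid, erythroid and stromal cells had medians of 5.0 to 8.11. Of these 22 only the myeloid integrin gene Itgam, at 7.37 to 8.46, rose in a 24 h comparison of withdrawal, and its part in the changes below was not tested. In bulk RNA, fewer cells of a type and less RNA per cell cannot be told apart.

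All 42 members were lower in experiment 2 than in experiment 1, with a median difference of -0.15, and 33 of them passed the test of that difference, against 11.9% of all genes that were lower in experiment 2. The median over genes with a mean of 9 or above, a stratum chosen after values were seen, was -0.055. The offset is shared by the groups and adds to the spread within each group. Counts are therefore also given from the fit with the experiment number as a block, where it moved them by over 1.5 times. In the text below a gene rose or fell when its Benjamini-Hochberg adjusted p in limma was under 0.05 over all 19938 genes, and each ± is a standard error of a difference between groups with n = 2 arrays each.

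The most calls in a single comparison were made at 24 h between withdrawal plus 4OHT (both treatments) and IL-7 alone, where 22 members fell and 2 rose. Among all genes 33.6% passed in this comparison, 15.4% as lower and 18.1% as higher, and among the 7111 genes with a mean of 9 or above 29.4% were lower. The falling members were 17 of 35 subunits and 5 of 7 assembly factors, and the rising ones were the subunit gene Ndufa6 and the assembly factor gene Ndufaf3. The median change was -0.31 for subunits (-0.28 in experiment 1 and -0.39 in experiment 2) and -0.52 for assembly factors (-0.50 and -0.55), with -0.01 for all genes and 0.06 for genes at 9 or above. In 26 subunits and 5 assembly factors both arrays of withdrawal plus 4OHT lay below both arrays of IL-7 alone, against 28.2% of all genes. Removing single arrays left 16 to 23 calls, and 16 genes kept theirs in all 4 removals, among them Ndufaf2 to Ndufaf6, Ndufa4, Ndufa6, Ndufb2, Ndufb6 and Ndufs6.

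IL-7 withdrawal was compared at 24 h on separate arrays with and without 4OHT. Under 4OHT 17 members fell (12 subunits and 5 assembly factors) and 2 rose, where 24.3% of all genes passed, 11.5% as lower and 12.8% as higher, and 24.1% of genes at 9 or above were lower. The subunit median was -0.24 (-0.23 and -0.31 by experiment) and the assembly factor median -0.69 (-0.59 and -0.76), against 0.06 for all genes. In 27 subunits and 6 assembly factors both withdrawn arrays lay below both arrays with IL-7, against 20.9% of all genes. With the experiment number as a block 20 subunits and 6 assembly factors fell. In that fit 14.3% of all genes and 2095 of the 7111 at 9 or above were lower. The 19 calls became 9 without experiment 2 of withdrawal plus 4OHT and 10 without experiment 1 of IL-7 plus 4OHT. The calls of Ndufa6, Ndufaf2, Ndufaf4, Ndufaf5, Ndufaf6, Ndufb6 and Ndufc2 held in all 4 removals.

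Without 4OHT, 24 h of withdrawal lowered 7 members (4 subunits and 3 assembly factors) and raised 2, where 20.0% of all genes passed, 8.78% as lower and 11.2% as higher, and 17.9% of genes at 9 or above were lower. With the experiment number as a block 19 fell and 2 rose, against 12.0% of all genes lower and 15.6% higher. Of the 7111 genes at 9 or above 1707 were lower and 2263 higher in that fit. The subunit median was -0.16 (-0.11 and -0.21) and the assembly factor median -0.36 (-0.39 and -0.25). All 7 genes that fell without 4OHT also fell with it, which is 41.2% of the 17 that fell there, and Ndufa6 and Ndufaf3 rose in both. Among all genes the shares of the lower genes were 88.0% and 67.1%. The 9 calls became 3 without experiment 1 and 4 without experiment 2 of IL-7 alone, and 2 without experiment 1 and 3 without experiment 2 of withdrawal alone. Ndufaf2 fell in each of these 4 fits.

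At 6 h, withdrawal was measured under 4OHT only. Here 4 members fell, all of them assembly factors (Ndufaf2, Ndufaf4, Ndufaf5 and Ndufaf6), and Ndufaf3 rose, while 0 of 35 subunits passed. Among all genes 14.3% passed, 7.48% as lower and 6.78% as higher, and 15.5% of genes at 9 or above were lower. Without adjustment 8 subunits had p under 0.05, as had 4767 of all 19938 genes and 3238 of the 7111 at 9 or above. With the block 8 subunits and 5 assembly factors fell, and Ndufa6 and Ndufaf3 rose. In that fit 10.0% of all genes were lower and 11.2% higher, and of the 7111 at 9 or above 1461 were lower and 1541 higher. The assembly factor median was -0.33 (-0.45 and -0.23) and the subunit median -0.11 (-0.16 and -0.06), against 0.03 for all genes; the difference between these medians was not tested. In 10 of 35 subunits and 5 of 7 assembly factors both withdrawn arrays lay below both others, against 18.5% of all genes. The 5 calls became 3 without experiment 1 of IL-7 plus 4OHT, and 3 without either array of withdrawal plus 4OHT. The subunit median turned to 0.04 without experiment 1 of IL-7 plus 4OHT and to 0.00 without experiment 2 of withdrawal plus 4OHT. All 4 genes that fell at 6 h also fell at 24 h under 4OHT, which is 23.5% of the 17 that fell there. Among all genes these shares were 71.6% and 46.6%.

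4OHT was compared at 24 h with and without IL-7. With IL-7 only Ndufaf4 fell, where 9.16% of all genes passed, 3.94% as lower, and 5.29% of genes at 9 or above were lower. With the block 3 members fell and 1 rose, against 7.58% of all genes lower and 9.09% higher. Of the 7111 genes at 9 or above 567 were lower and 1245 higher in that fit. The Ndufaf4 call was lost without any single one of the 4 arrays. Without IL-7 4OHT lowered 5 members, Ndufaf4, Ndufa4, Ndufaf5, Ndufb3 and Ndufa12, where 15.3% of all genes passed, 8.17% as lower, and 15.2% of genes at 9 or above were lower. With the block 16 fell and 2 rose, against 11.5% of all genes lower and 11.0% higher. Of the 7111 genes at 9 or above 1537 were lower and 1397 higher in that fit. The 5 calls became 1 without experiment 2 of withdrawal plus 4OHT, 2 without experiment 1 of withdrawal alone and 1 without experiment 2 of withdrawal alone, and the call of Ndufaf4 held throughout. The median of the 42 members was -0.08 with IL-7 (-0.10 and -0.06) and -0.16 without it (-0.14 and -0.19).

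Cultures kept in IL-7 were compared with time 0 at 24 h without 4OHT and at 6 h with it. After 24 h with IL-7 alone Ndufaf3 and Ndufa6 were lower than at time 0, where 3.09% of all genes passed, 2.36% as lower, and each call was lost without any single one of the 4 arrays. After 6 h with IL-7 plus 4OHT Ndufaf6 was higher than at time 0, where 8.77% of all genes passed, 3.92% as higher, and its call was lost without either time 0 array and without experiment 1 at 6 h. With the block 8 members fell and 2 rose at 6 h, against 8.21% of all genes lower and 6.83% higher. Of the 7111 genes at 9 or above 1067 were lower and 837 higher in that fit. The median of the members at 6 h was -0.12 (-0.15 and -0.09) and became 0.04 without experiment 1 of time 0. The map of log2 differences sets these comparisons side by side for each gene. The 24 h comparisons in it share arrays, so their columns are not independent.

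**Figure D1:**
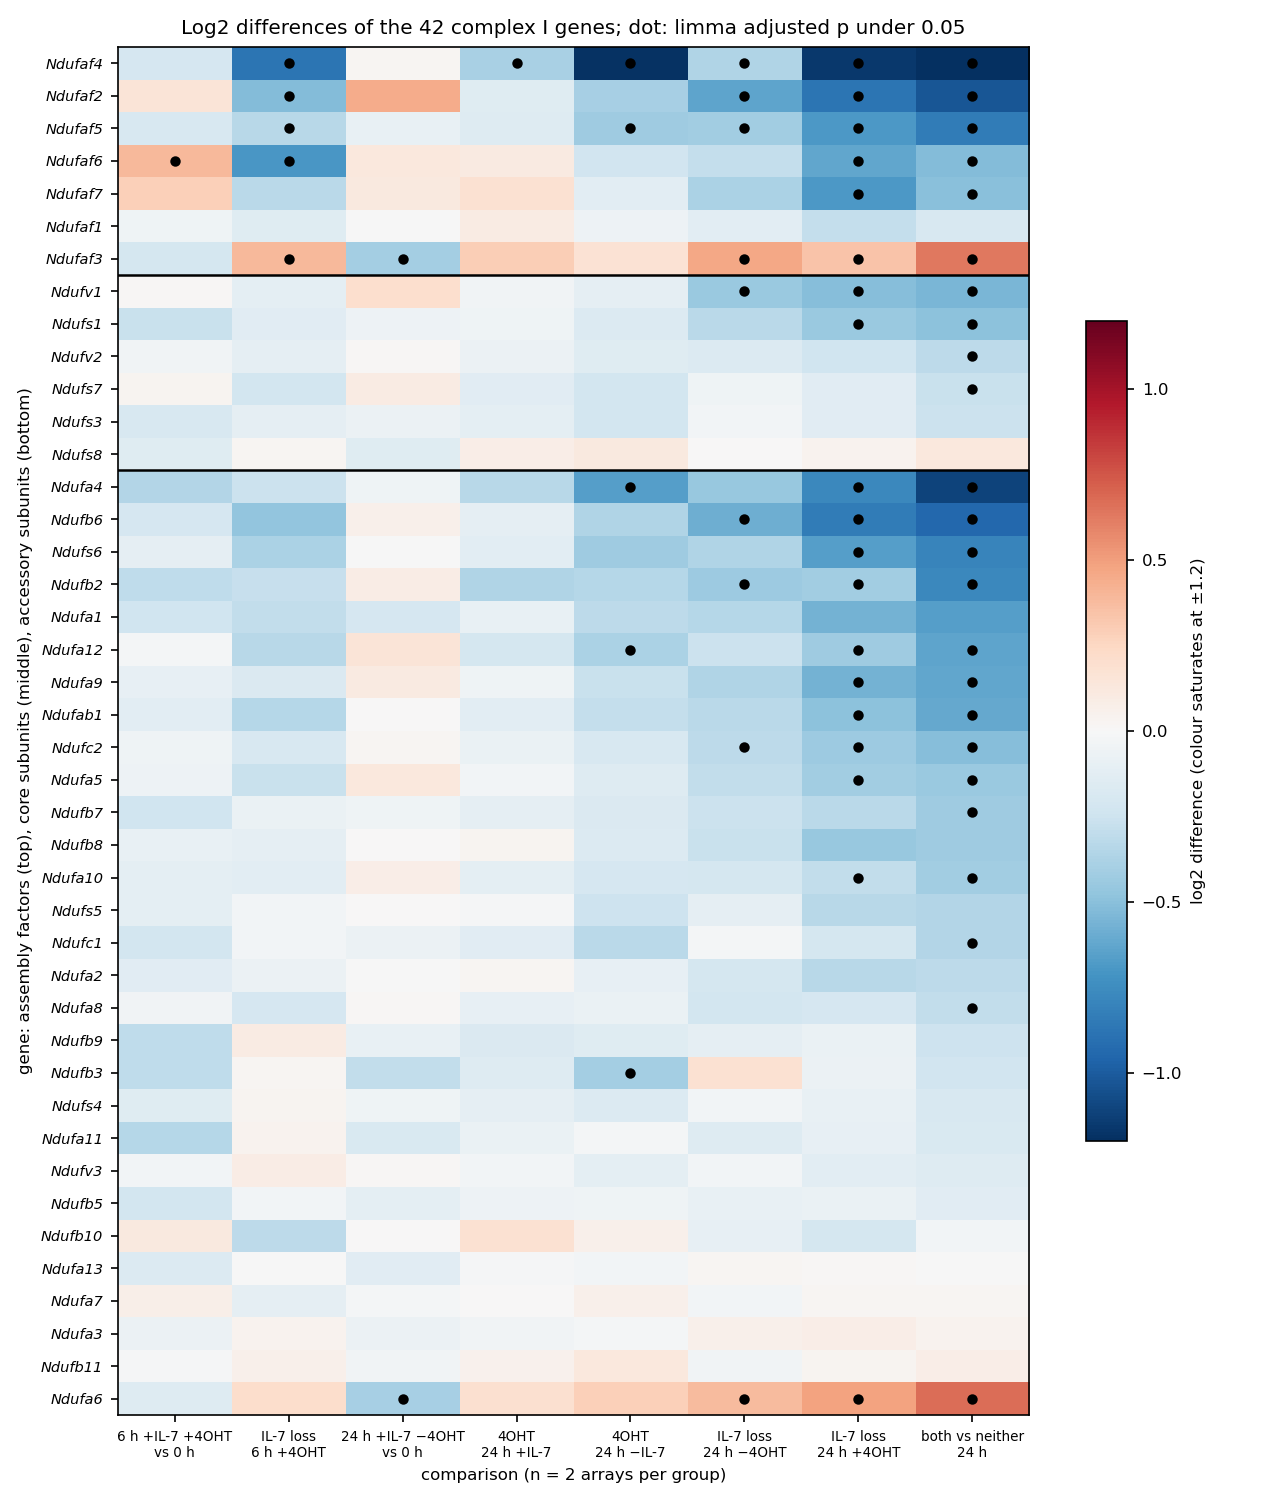
Log2 differences of the 42 complex I genes (rows) in 8 comparisons (columns) between groups of n = 2 arrays, with red for higher, blue for lower and a dot where the limma adjusted p was under 0.05. Dots in the column of 6 h withdrawal stand in the assembly factor rows, while the columns of withdrawal at 24 h under 4OHT and of both treatments against neither hold 19 and 24 dots, and in these 3 columns Ndufaf3 and Ndufa6 are red where most other rows are blue.

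Among the assembly factors Ndufaf4 had the largest changes with withdrawal under 4OHT, with 4OHT and with both treatments, though not with withdrawal alone or against time 0. In human cells its product works together with that of Ndufaf3 on an early intermediate that will bind ubiquinone. Ndufaf4 read 10.71 and 10.40 at time 0, 10.40 and 10.32 after 6 h with IL-7 plus 4OHT and 9.37 and 9.60 after 6 h of withdrawal plus 4OHT. At 24 h it read 10.66 and 10.49 with IL-7 alone, 10.16 and 10.22 with IL-7 plus 4OHT, 10.28 and 10.15 after withdrawal alone and 9.05 and 9.0 after withdrawal plus 4OHT. Both arrays of the last group lay below the other 12, the 6 h withdrawal arrays came next, and the groups given only 4OHT or only withdrawal at 24 h overlapped each other below IL-7 alone. Withdrawal under 4OHT changed it by -0.87 ± 0.11 (adjusted p = 0.00018) at 6 h and by -1.16 ± 0.11 (adjusted p = 1.19e-05) at 24 h, and both calls held in every removal of an array. Withdrawal without 4OHT changed it by -0.36 ± 0.11 (adjusted p = 0.0329), and this call held only without experiment 2 of IL-7 alone. 4OHT changed it by -0.39 ± 0.11 (adjusted p = 0.0432) with IL-7 and by -1.19 ± 0.11 (adjusted p = 1.18e-05) without it. With both treatments the level was 0.341 times that of IL-7 alone, a difference of -1.55 ± 0.11 (adjusted p = 5.03e-07).

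Ndufaf4 was also the 1 member that passed the test of whether withdrawal acted differently with 4OHT. The interaction at 24 h was -0.80 ± 0.15 (adjusted p = 0.0389), -0.72 in experiment 1 and -0.87 in experiment 2, where 0.687% of all genes passed, 0.617% as lower. The other assembly factors had interaction values from -0.34 to -0.12, all below 0 and none past the threshold. Leaving out any 1 of the 8 arrays of this comparison ended the Ndufaf4 call, with values from -0.88 to -0.71.

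Ndufaf2 encodes a relative of the subunit NDUFA12 that holds its place late in assembly. It read 8.34 and 7.98 at time 0, 8.44 and 8.19 at 6 h with IL-7 plus 4OHT and 7.93 and 7.67 at 6 h of withdrawal plus 4OHT. At 24 h its levels were 8.70 and 8.51 with IL-7 alone, 8.53 and 8.40 with IL-7 plus 4OHT, 7.94 and 8.02 after withdrawal alone and 7.62 and 7.54 after withdrawal plus 4OHT. The last group was again below all other arrays, and withdrawal alone overlapped time 0. Ndufaf2 fell with withdrawal, with a log2 change of -0.52 ± 0.13 (adjusted p = 0.0187) at 6 h, -0.63 ± 0.13 (adjusted p = 0.00471) at 24 h without 4OHT and -0.88 ± 0.13 (adjusted p = 0.000401) at 24 h with it. The 6 h call was lost without experiment 1 of IL-7 plus 4OHT or experiment 2 of withdrawal plus 4OHT, and the 24 h calls held in all removals.

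Ndufaf5 encodes an enzyme that hydroxylates an arginine of the core subunit NDUFS7. Its levels were 8.13 and 7.96 at time 0, 7.96 and 7.74 at 6 h with IL-7 plus 4OHT and 7.51 and 7.53 at 6 h of withdrawal plus 4OHT. The 24 h levels were 8.02 and 7.88 with IL-7 alone, 7.83 and 7.77 with IL-7 plus 4OHT, 7.56 and 7.52 after withdrawal alone and 7.24 and 6.99 after withdrawal plus 4OHT. All 6 withdrawn arrays lay below the 8 arrays with IL-7, and the last group lay lowest without overlap. The withdrawal differences were -0.33 ± 0.10 (adjusted p = 0.049) at 6 h, -0.41 ± 0.10 (adjusted p = 0.0121) at 24 h without 4OHT and -0.69 ± 0.10 (adjusted p = 0.000377) with it, and 4OHT without IL-7 gave -0.42 ± 0.10 (adjusted p = 0.0127). The 6 h call held only without experiment 2 of IL-7 plus 4OHT, the 24 h call without 4OHT held only without experiment 2 of IL-7 alone, and that with 4OHT held in all removals.

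Ndufaf6 is needed for the early membrane steps of assembly and was the dimmest member. It read 7.53 and 7.47 at time 0, 8.00 and 7.78 at 6 h with IL-7 plus 4OHT and 7.18 and 7.21 at 6 h of withdrawal plus 4OHT. Its 24 h values were 7.73 and 7.52 with IL-7 alone, 7.80 and 7.65 with IL-7 plus 4OHT, 7.42 and 7.27 after withdrawal alone and 7.24 and 6.97 after withdrawal plus 4OHT. The 6 withdrawn arrays lay below the other 8, and the 6 h and 24 h groups of withdrawal plus 4OHT overlapped. Ndufaf6 fell, with a log2 change of -0.69 ± 0.11 (adjusted p = 0.00116) with 6 h of withdrawal and -0.62 ± 0.11 (adjusted p = 0.00146) with 24 h under 4OHT. The 24 h difference without 4OHT was -0.28 ± 0.11 (adjusted p = 0.105), which passed with the block (adjusted p = 0.0125), and the rise from time 0 to 6 h with IL-7 plus 4OHT was 0.39 ± 0.11 (adjusted p = 0.0494).

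Ndufaf7 encodes a methyltransferase that acts on an arginine of a core subunit. Its levels were 8.47 and 8.14 at time 0, 8.77 and 8.40 at 6 h with IL-7 plus 4OHT and 8.35 and 8.17 at 6 h of withdrawal plus 4OHT. At 24 h they were 8.57 and 8.27 with IL-7 alone, 8.69 and 8.52 with IL-7 plus 4OHT, 8.06 and 8.03 after withdrawal alone and 8.08 and 7.76 after withdrawal plus 4OHT. The 4 withdrawn arrays at 24 h lay below the other 10, and the 6 h withdrawal group overlapped time 0. Ndufaf7 fell with 24 h of withdrawal under 4OHT, with a log2 change of -0.69 ± 0.16 (adjusted p = 0.0068), a call lost without experiment 1 of IL-7 plus 4OHT or experiment 2 of withdrawal plus 4OHT. The differences at 6 h, -0.32 ± 0.16 (adjusted p = 0.245), and at 24 h without 4OHT, -0.38 ± 0.16 (adjusted p = 0.128), passed only with the block (limma adjusted p = 0.0113 and 0.00324).

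Ndufaf1 encodes a member of the assembly complex that also holds ACAD9 and ECSIT. It read 10.67 and 10.33 at time 0, 10.63 and 10.26 at 6 h with IL-7 plus 4OHT and 10.42 and 10.19 at 6 h of withdrawal plus 4OHT. The 24 h levels were 10.65 and 10.35 with IL-7 alone, 10.66 and 10.53 with IL-7 plus 4OHT, 10.43 and 10.31 after withdrawal alone and 10.42 and 10.20 after withdrawal plus 4OHT. In each group the array of experiment 1 was the higher, and most groups overlapped. None of the 10 comparisons passed for Ndufaf1, with -0.29 ± 0.15 (adjusted p = 0.209) for 24 h of withdrawal under 4OHT, where the block gave a fall.

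Ndufaf3, whose product is the partner of NDUFAF4 in human cells, moved the other way. Its levels were 11.36 and 11.23 at time 0, 11.17 and 11.00 at 6 h with IL-7 plus 4OHT and 11.54 and 11.40 at 6 h of withdrawal plus 4OHT. At 24 h it read 10.97 and 10.80 with IL-7 alone, 11.26 and 11.09 with IL-7 plus 4OHT, 11.42 and 11.26 after withdrawal alone and 11.57 and 11.46 after withdrawal plus 4OHT. IL-7 alone at 24 h was the lowest group and overlapped no other, both groups of withdrawal plus 4OHT overlapped as the highest, and withdrawal alone overlapped time 0. Ndufaf3 rose with withdrawal by 0.39 ± 0.10 (adjusted p = 0.0206) at 6 h, 0.46 ± 0.10 (adjusted p = 0.0059) at 24 h without 4OHT and 0.34 ± 0.10 (adjusted p = 0.0265) with it. Each of these calls was lost without experiment 2 of the group with IL-7 or experiment 1 of the withdrawn group. Between time 0 and 24 h with IL-7 alone it fell, with a log2 change of -0.41 ± 0.10 (adjusted p = 0.0485), and the rise with both treatments against IL-7 alone, 0.63 ± 0.10 (adjusted p = 0.000286), starts from that low group.

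**Figure D2:**
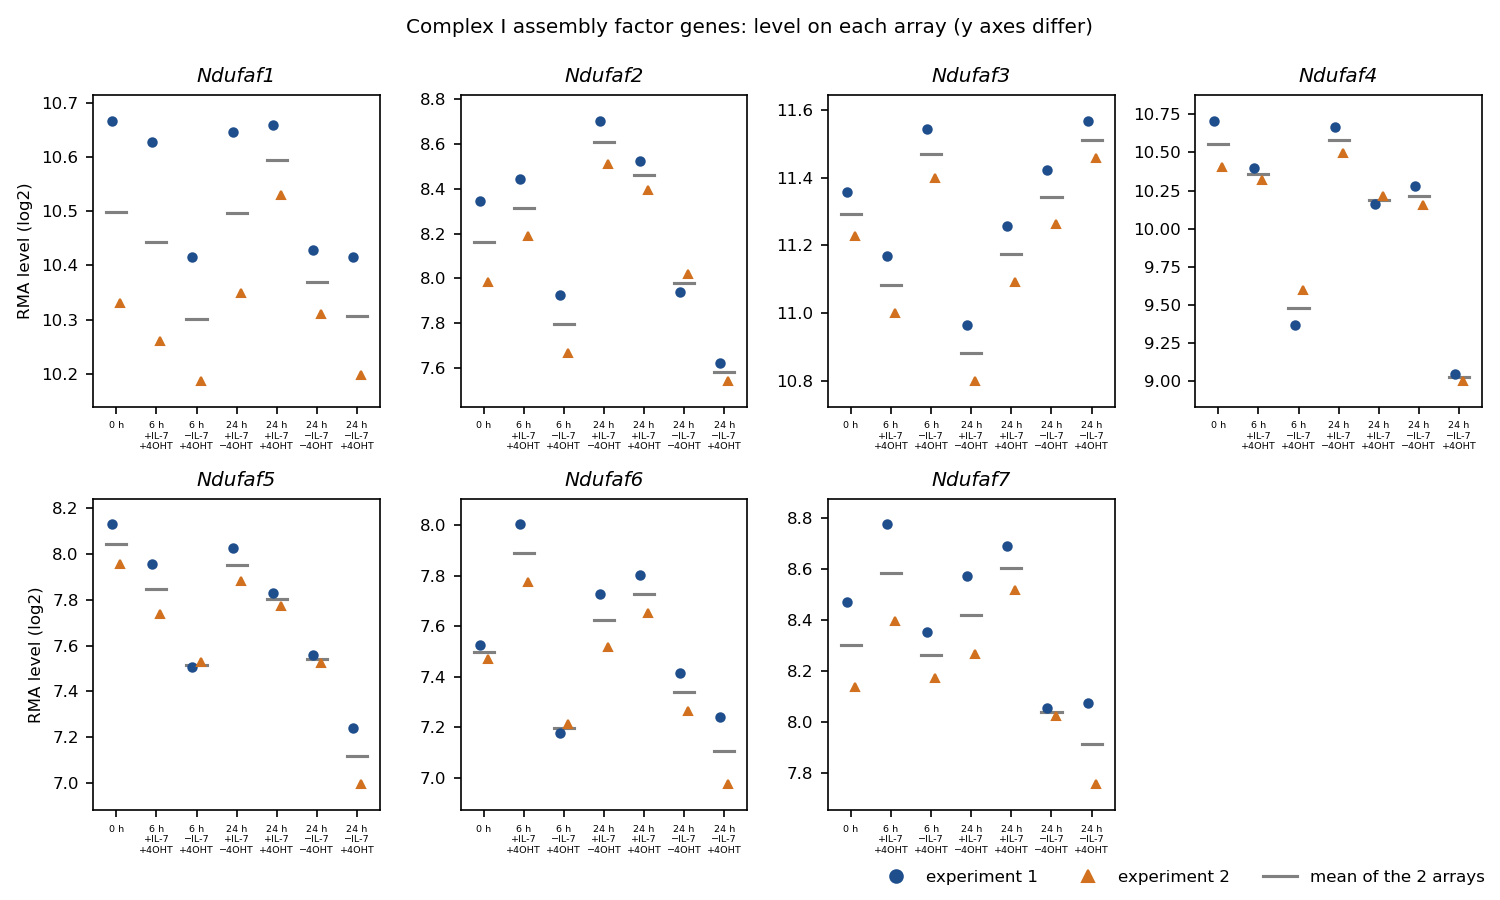
Log2 RMA level (y axis, scaled per gene) of the 7 Ndufaf assembly factor genes in the 7 groups (x axis), with a circle for experiment 1, a triangle for experiment 2 and a bar for the mean of the 2 arrays. Ndufaf4 drops to 9.05 and 9.0 after 24 h of withdrawal plus 4OHT, Ndufaf3 is highest after withdrawal plus 4OHT and lowest at 24 h with IL-7 alone, and most groups of Ndufaf1 overlap.

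Of the core subunits that receive electrons from NADH, Ndufv1 encodes the flavin-binding subunit. It read 11.28 and 10.91 at time 0, 11.27 and 10.95 at 6 h with IL-7 plus 4OHT and 11.09 and 10.89 at 6 h of withdrawal plus 4OHT. The 24 h values were 11.37 and 11.23 with IL-7 alone, 11.26 and 11.24 with IL-7 plus 4OHT, 10.88 and 10.82 after withdrawal alone and 10.84 and 10.65 after withdrawal plus 4OHT. The 4 withdrawn arrays at 24 h lay below the other 10 and overlapped each other. Ndufv1 fell with 24 h of withdrawal, with a log2 change of -0.44 ± 0.13 (adjusted p = 0.0335) without 4OHT and -0.51 ± 0.13 (adjusted p = 0.0141) with it, and its 6 h difference was -0.12 ± 0.13 (adjusted p = 0.723). The call without 4OHT was lost without any 1 of its 4 arrays, and the call with 4OHT held only without experiment 1 of withdrawal plus 4OHT.

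Ndufs1 encodes the largest iron-sulfur subunit of the same module. Its levels were 10.84 and 10.50 at time 0, 10.55 and 10.25 at 6 h with IL-7 plus 4OHT and 10.35 and 10.19 at 6 h of withdrawal plus 4OHT. They were 10.72 and 10.51 with IL-7 alone, 10.67 and 10.46 with IL-7 plus 4OHT, 10.35 and 10.23 after withdrawal alone and 10.20 and 10.04 after withdrawal plus 4OHT at 24 h. The last group was lowest and overlapped the 6 h withdrawal group. Ndufs1 fell with 24 h of withdrawal under 4OHT, with a log2 change of -0.44 ± 0.14 (adjusted p = 0.0325), and with both treatments against IL-7 alone, with a change of -0.49 ± 0.14 (adjusted p = 0.0133). The former call was lost without experiment 1 of IL-7 plus 4OHT or experiment 2 of withdrawal plus 4OHT, and the latter without experiment 1 of IL-7 alone or experiment 2 of withdrawal plus 4OHT.

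Ndufv2 encodes the small iron-sulfur partner of NDUFV1. It read 12.40 and 12.20 at time 0, 12.30 and 12.21 at 6 h with IL-7 plus 4OHT and 12.26 and 12.05 at 6 h of withdrawal plus 4OHT. Its 24 h levels were 12.35 and 12.27 with IL-7 alone, 12.23 and 12.24 with IL-7 plus 4OHT, 12.24 and 12.05 after withdrawal alone and 12.10 and 11.90 after withdrawal plus 4OHT. The last group lay below both 24 h groups with IL-7 and overlapped both other withdrawal groups. Ndufv2 fell with both treatments against IL-7 alone, with a log2 change of -0.31 ± 0.10 (adjusted p = 0.0357), a call that held only without experiment 1 of withdrawal plus 4OHT.

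The other core subunits measured, Ndufs3, Ndufs7 and Ndufs8, belong to the part that links the NADH module to ubiquinone. Ndufs7, which carries the last iron-sulfur cluster, read 12.97 and 12.79 at time 0, 12.98 and 12.86 at 6 h with IL-7 plus 4OHT and 12.74 and 12.66 at 6 h of withdrawal plus 4OHT. At 24 h it read 12.95 and 13.00 with IL-7 alone, 12.80 and 12.88 with IL-7 plus 4OHT, 13.00 and 12.85 after withdrawal alone and 12.69 and 12.72 after withdrawal plus 4OHT. The 4 arrays of withdrawal plus 4OHT lay below the other 10, while withdrawal alone overlapped IL-7 alone. Ndufs7 fell with both treatments against IL-7 alone, with a log2 change of -0.27 ± 0.08 (adjusted p = 0.0235), and this call was lost without any 1 of the 4 arrays.

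Ndufs3 was 11.68 and 11.44 at time 0, 11.51 and 11.23 at 6 h with IL-7 plus 4OHT and 11.31 and 11.21 at 6 h of withdrawal plus 4OHT. It was 11.56 and 11.42 with IL-7 alone, 11.40 and 11.35 with IL-7 plus 4OHT, 11.54 and 11.38 after withdrawal alone and 11.33 and 11.14 after withdrawal plus 4OHT at 24 h. No comparison passed for this gene, and both treatments against IL-7 alone gave -0.26 ± 0.11 (adjusted p = 0.111), with groups that did not overlap and a fall with the block. Its second probe set gave -0.22 in that comparison.

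Ndufs8 was 12.36 and 12.13 at time 0, 12.22 and 11.97 at 6 h with IL-7 plus 4OHT and 12.21 and 12.03 at 6 h of withdrawal plus 4OHT. At 24 h the values were 12.14 and 12.06 with IL-7 alone, 12.21 and 12.16 with IL-7 plus 4OHT, 12.15 and 12.05 after withdrawal alone and 12.27 and 12.18 after withdrawal plus 4OHT. Most groups overlapped, though at 24 h all arrays with 4OHT lay above all arrays without it. No comparison passed, and both treatments against IL-7 alone gave 0.13 ± 0.10 (adjusted p = 0.438), above 0 where the other 5 core subunits were below it. Of the 6 core subunits 4 fell in that comparison, where their median was -0.29. In it 15.4% of all genes and 29.4% of genes at 9 or above were lower.

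Of the 29 accessory subunits 13 fell and 1 rose with both treatments against IL-7 alone at 24 h, with a median of -0.35. Among all genes 15.4% were lower and 18.1% higher there, and among genes at 9 or above 29.4% and 35.5%. Ndufb6 encodes a subunit of the membrane arm. It read 12.37 and 11.92 at time 0, 12.11 and 11.77 at 6 h with IL-7 plus 4OHT and 11.61 and 11.32 at 6 h of withdrawal plus 4OHT. At 24 h it read 12.25 and 12.17 with IL-7 alone, 12.14 and 12.06 with IL-7 plus 4OHT, 11.72 and 11.53 after withdrawal alone and 11.32 and 11.20 after withdrawal plus 4OHT. All 6 withdrawn arrays lay below the other 8. Ndufb6 fell with 24 h of withdrawal, with a log2 change of -0.58 ± 0.15 (adjusted p = 0.0175) without 4OHT and -0.84 ± 0.15 (adjusted p = 0.00164) with it, and the 6 h difference was -0.47 ± 0.15 (adjusted p = 0.0609), which passed with the block (adjusted p = 0.00179). The call under 4OHT held in every removal, and the call without 4OHT held only without experiment 1 of withdrawal alone.

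Ndufa4, kept here by its name, is now counted as a subunit of cytochrome c oxidase (complex IV). Its levels were 11.64 and 11.25 at time 0, 11.27 and 10.91 at 6 h with IL-7 plus 4OHT and 11.07 and 10.59 at 6 h of withdrawal plus 4OHT. The 24 h levels were 11.43 and 11.35 with IL-7 alone, 11.05 and 11.06 with IL-7 plus 4OHT, 11.02 and 10.86 after withdrawal alone and 10.41 and 10.15 after withdrawal plus 4OHT. The last group lay below the other 12 arrays, and the groups given a single treatment at 24 h did not overlap IL-7 alone and stood below it. Ndufa4 fell at 24 h with 4OHT in the absence of IL-7, with a log2 change of -0.66 ± 0.17 (adjusted p = 0.0195). At that time it also fell with withdrawal under 4OHT, at -0.78 ± 0.17 (adjusted p = 0.00546), and with both treatments, at -1.11 ± 0.17 (adjusted p = 0.00023). The differences of the single treatments against IL-7 alone, -0.34 ± 0.17 (adjusted p = 0.266) for 4OHT and -0.45 ± 0.17 (adjusted p = 0.0917) for withdrawal, passed only with the block. The withdrawal call under 4OHT was lost without experiment 2 of withdrawal plus 4OHT, and the 4OHT call held only without experiment 1 of that group.

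Ndufs6 encodes a zinc-binding subunit next to the NADH module. It read 10.78 and 10.36 at time 0, 10.60 and 10.31 at 6 h with IL-7 plus 4OHT and 10.24 and 9.91 at 6 h of withdrawal plus 4OHT. Its 24 h levels were 10.49 and 10.64 with IL-7 alone, 10.39 and 10.49 with IL-7 plus 4OHT, 10.24 and 10.16 after withdrawal alone and 9.87 and 9.67 after withdrawal plus 4OHT. The 6 withdrawn arrays lay below the other 8, and withdrawal plus 4OHT at 24 h was lowest without overlap. Ndufs6 fell with 24 h of withdrawal under 4OHT, with a log2 change of -0.67 ± 0.15 (adjusted p = 0.00591). That call was lost without experiment 2 of withdrawal plus 4OHT. Ndufs6 also fell with both treatments against IL-7 alone, at -0.79 ± 0.15 (adjusted p = 0.00108).

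Ndufb2, a further membrane arm subunit gene, read 9.03 and 8.92 at time 0, 8.76 and 8.57 at 6 h with IL-7 plus 4OHT and 8.48 and 8.30 at 6 h of withdrawal plus 4OHT. The 24 h values were 9.15 and 8.97 with IL-7 alone, 8.79 and 8.60 with IL-7 plus 4OHT, 8.64 and 8.61 after withdrawal alone and 8.49 and 8.07 after withdrawal plus 4OHT. Withdrawal alone overlapped IL-7 plus 4OHT, and the last group overlapped the 6 h withdrawal group. The withdrawal differences at 24 h were -0.43 ± 0.13 (adjusted p = 0.0338) without 4OHT and -0.41 ± 0.13 (adjusted p = 0.0357) with it, and both treatments gave -0.78 ± 0.13 (adjusted p = 0.000453). The call without 4OHT was lost without any 1 of its arrays, and that with 4OHT held only without experiment 1 of withdrawal plus 4OHT.

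Ndufa12, the subunit related to the assembly factor NDUFAF2, read 10.62 and 10.28 at time 0, 10.49 and 10.36 at 6 h with IL-7 plus 4OHT and 10.18 and 10.01 at 6 h of withdrawal plus 4OHT. At 24 h it read 10.54 and 10.65 with IL-7 alone, 10.36 and 10.42 with IL-7 plus 4OHT, 10.40 and 10.28 after withdrawal alone and 10.06 and 9.86 after withdrawal plus 4OHT. The arrays of withdrawal plus 4OHT at both times lay below the other 10. Ndufa12 fell at 24 h with 4OHT in the absence of IL-7, with a log2 change of -0.38 ± 0.11 (adjusted p = 0.0442). At that time it also fell with withdrawal under 4OHT, at -0.43 ± 0.11 (adjusted p = 0.0158), and with both treatments, at -0.64 ± 0.11 (adjusted p = 0.000748). Only the last of these calls held in all removals.

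Ndufb3, of the membrane arm, fell in a single comparison. Its levels were 9.74 and 9.44 at time 0, 9.38 and 9.19 at 6 h with IL-7 plus 4OHT and 9.44 and 9.18 at 6 h of withdrawal plus 4OHT. They were 9.39 and 9.20 with IL-7 alone, 9.11 and 9.18 with IL-7 plus 4OHT, 9.53 and 9.43 after withdrawal alone and 9.07 and 9.08 after withdrawal plus 4OHT at 24 h. At 24 h both groups with 4OHT were low and withdrawal alone was high, and time 0 reached the highest single value. The fall with 4OHT in the absence of IL-7 was -0.41 ± 0.12 (adjusted p = 0.0326), a call lost without any 1 of its arrays.

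Ndufa6 was the only subunit gene that rose in any of the comparisons. Its product is a small protein that binds the mitochondrial acyl carrier protein, encoded by Ndufab1. Ndufa6 read 11.55 and 11.44 at time 0, 11.41 and 11.27 at 6 h with IL-7 plus 4OHT and 11.66 and 11.45 at 6 h of withdrawal plus 4OHT. At 24 h it read 11.15 and 11.05 with IL-7 alone, 11.32 and 11.25 with IL-7 plus 4OHT, 11.60 and 11.36 after withdrawal alone and 11.78 and 11.76 after withdrawal plus 4OHT. As for Ndufaf3, IL-7 alone at 24 h was the lowest group and overlapped no other, and withdrawal plus 4OHT at 24 h lay above the other 12 arrays. Ndufa6 rose with 24 h of withdrawal by 0.38 ± 0.10 (adjusted p = 0.0138) without 4OHT and 0.48 ± 0.10 (adjusted p = 0.00296) with it, and it fell between time 0 and 24 h with IL-7 alone, with a log2 change of -0.40 ± 0.10 (adjusted p = 0.0483). The call under 4OHT held in all removals, and that without 4OHT was lost without experiment 2 of IL-7 alone or experiment 1 of withdrawal alone. Ndufab1 itself fell with 24 h of withdrawal under 4OHT, with a log2 change of -0.50 ± 0.12 (adjusted p = 0.0078), and its second probe set gave -0.51.

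The other subunit genes that fell with both treatments against IL-7 alone were Ndufa9, Ndufab1, Ndufc2, Ndufa5, Ndufb7, Ndufa10, Ndufc1 and Ndufa8, with changes from -0.62 (Ndufa9) to -0.30 (Ndufa8). Ndufc2, the brightest member, changed by -0.52 ± 0.09 (adjusted p = 0.000515), and by -0.32 ± 0.09 (adjusted p = 0.0226) with withdrawal alone, a call lost without any 1 of its 4 arrays. Ndufa1 had a difference of -0.66 ± 0.25 (adjusted p = 0.0646), passed only with the block (adjusted p = 0.000811), and its SE was the largest of the 42. The 15 accessory subunits that did not pass in this comparison ranged from -0.66 to 0.08 (Ndufb11). The second probe set of Ndufb11, not used here, gave 0.26. By name series, 3 of 9 Ndufb genes and 6 of 13 Ndufa genes fell there, where 15.4% of all genes and 29.4% of genes at 9 or above were lower. With the block 5 and 9 of them fell, where 3652 of all 19938 genes and 2395 of the 7111 at 9 or above were lower.

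**Figure D3:**
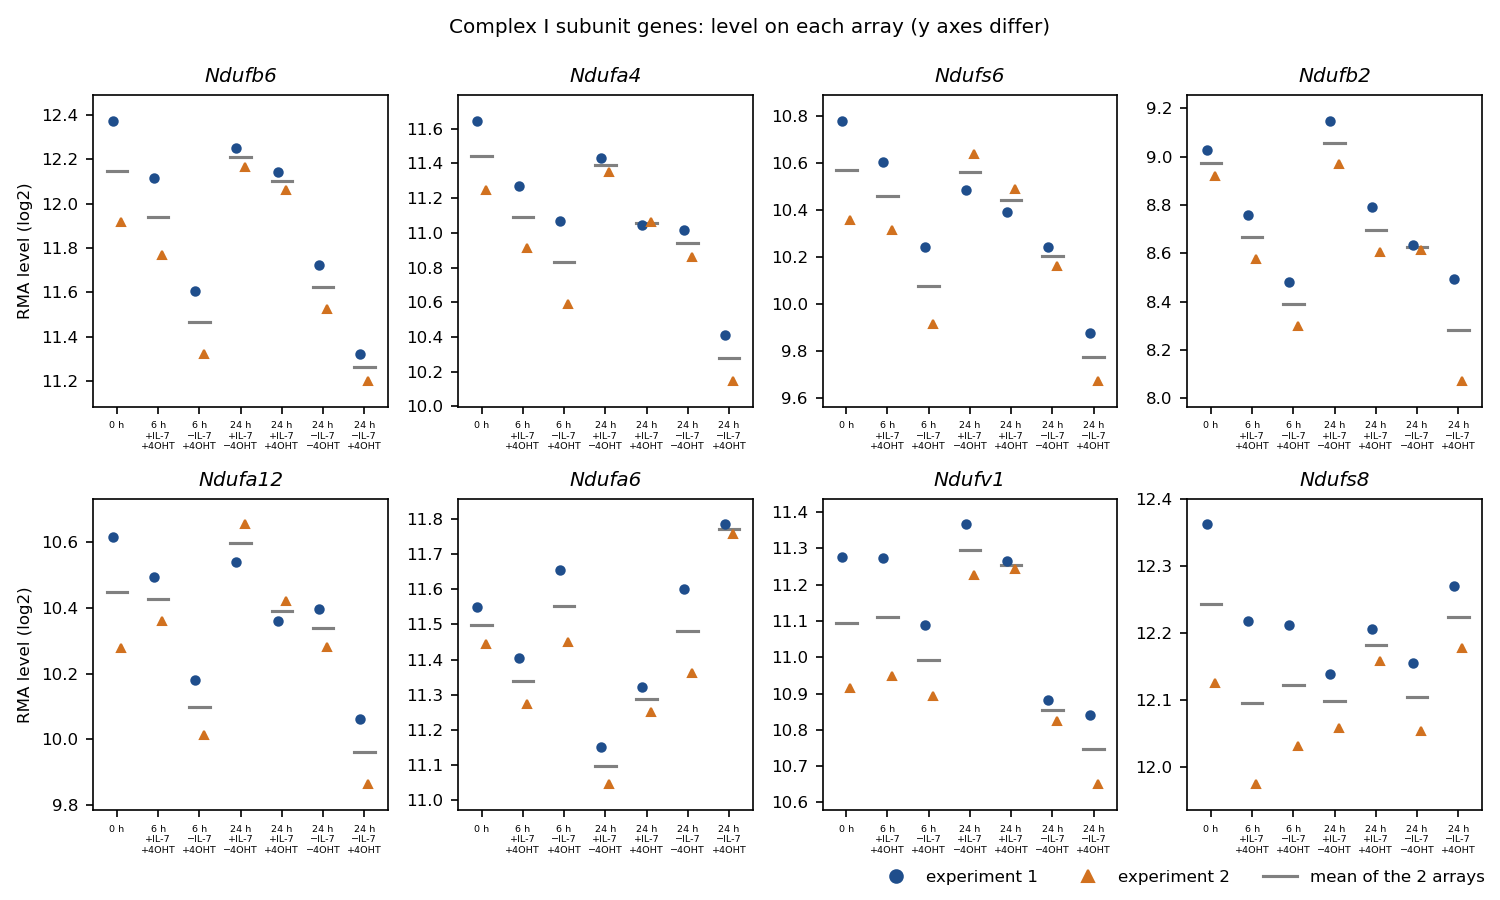
Log2 RMA level (y axis, scaled per gene) of 8 subunit genes in the 7 groups (x axis), with a circle for experiment 1, a triangle for experiment 2 and a bar for the mean of the 2 arrays. Ndufb6, Ndufa4, Ndufs6, Ndufb2 and Ndufa12 are lowest after 24 h of withdrawal plus 4OHT, Ndufa6 is highest there, and Ndufs8 overlaps between most groups.

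The difference between the withdrawal effects under 4OHT at 24 h and at 6 h was itself tested. None of the 42 members passed in limma, where 5.01% of all genes did, and 2 members had an unadjusted p under 0.05. With the block Ndufa4 and Ndufa9 passed as lower, against 5.98% of all genes and 861 of the 7111 at 9 or above. The median difference was -0.15 for subunits and -0.29 for assembly factors. Although more members were called at 24 h than at 6 h, the difference in effect did not pass for any of them without the block.

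Other complex I assembly factors, known by other names, were followed in a list of 9 measured genes. At 6 h of withdrawal 4 of 9 fell, led by Ecsit at -1.01 ± 0.14 (adjusted p = 0.00039), Foxred1 at -0.48 ± 0.09 (adjusted p = 0.00397) and Acad9 at -0.40 ± 0.11 (adjusted p = 0.0288), and the list median was -0.25, where 7.48% of all genes and 15.5% of genes at 9 or above were lower. ECSIT and ACAD9 work with NDUFAF1 on the membrane arm. At 24 h Acad9 fell, with a log2 change of -0.64 ± 0.11 (adjusted p = 0.00144) without 4OHT and -0.72 ± 0.11 (adjusted p = 0.000457) with it, among 2 and 3 genes of the list that fell, against 8.78% and 11.5% of all genes. With the block 5 of the 9 fell in each of these 24 h comparisons, against 12.0% and 14.3% of all genes. Of the 7111 genes at 9 or above 1707 and 2095 were lower in that fit. With both treatments against IL-7 alone 4 fell and Tmem126b, another partner of that complex, rose by 0.82 ± 0.17 (adjusted p = 0.00249), against 15.4% of all genes lower and 18.1% higher. Of the subunits encoded by mitochondrial DNA, ND3 had a probe set, and its differences lay between -0.17 and 0.11 with none passing.

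The other respiratory complexes were compared as lists of their nuclear genes. With both treatments against IL-7 alone, 4 of 4 complex II genes fell (median -0.50), led by Sdhd at -0.61 ± 0.15. Of the complex III genes 6 of 9 fell (median -0.51), and Uqcrq changed by -1.0 ± 0.11 (adjusted p = 1.14e-05). Of the complex IV genes 5 of 10 fell (median -0.30), led by Cox5a at -0.76 ± 0.13, and Cox7a2l rose by 0.54 ± 0.15. Of the ATP synthase genes 11 of 15 fell (median -0.38), with Atp5g1, a gene of its membrane ring, at -1.43 ± 0.12 (adjusted p = 2.09e-06). These shares stand beside 17 of 35 complex I subunits, 15.4% of all genes and 29.4% of genes at 9 or above. Ndufa4 is counted by its name among those 35 and is not in the complex IV list. At 6 h of withdrawal 0 of 4, 1 of 9, 1 of 10 and 1 of 15 genes of the lists of the other complexes fell. Among all genes 7.48% were lower there, and among genes at 9 or above 15.5%. The list medians were -0.10, -0.19, -0.07 and -0.17, beside -0.11 for the complex I subunits and -0.33 for the Ndufaf genes. With the block 1, 4, 2 and 5 genes of these lists fell at 6 h, against 10.0% of all genes and 1461 of the 7111 at 9 or above. With both treatments the block gave 4 of 4, 7 of 9, 8 of 10 and 12 of 15 genes lower. In that fit 1 gene of complex III and 1 of complex IV rose. Among all 19938 genes 3652 were lower there and 4198 higher, and among the 7111 at 9 or above 2395 were lower and 2815 higher. No test was made between lists.

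**Figure D4:**
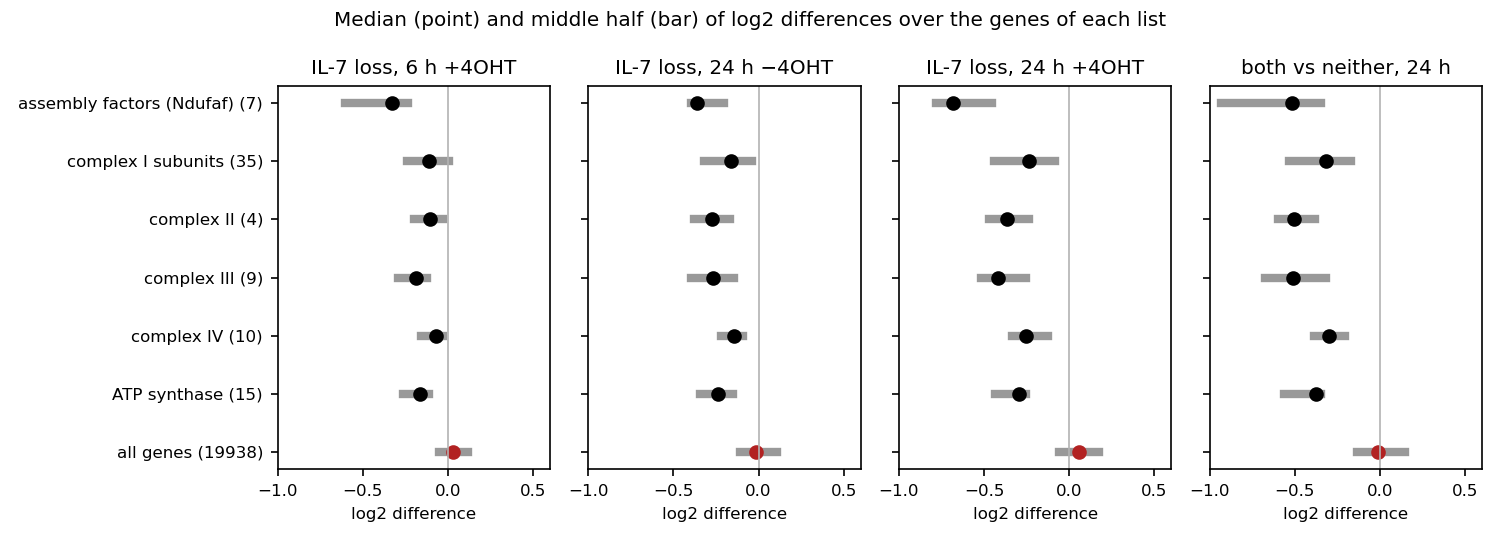
Log2 differences (x axis) in 4 comparisons, with a point for the median over the genes of each list, a bar from the lower to the upper quartile over those genes and the number of genes in parentheses. With both treatments against IL-7 alone the medians were -0.52 for assembly factors, -0.31 for complex I subunits and -0.01 for all 19938 genes, and the lists of the other complexes also lay below 0.

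Among 15 regulators of mitochondrial gene expression, Pprc1, a coactivator related to PGC-1alpha, had the lowest value with 6 h of withdrawal. It changed by -2.14 ± 0.11 (adjusted p = 4.37e-07) with 6 h of withdrawal, by -0.89 ± 0.11 (adjusted p = 0.000197) and -1.89 ± 0.11 (adjusted p = 6.9e-07) with 24 h without and with 4OHT, and its interaction was -1.0 ± 0.16 (adjusted p = 0.0154). It did not pass for 4OHT with IL-7, where Ppargc1b fell, with a log2 change of -0.86 ± 0.09 (adjusted p = 0.000111). Ppargc1b and Ppargc1a encode the other coactivators of that family, and at 6 h with IL-7 plus 4OHT against time 0 they fell, with log2 changes of -0.89 ± 0.09 and -0.93 ± 0.09, while Pprc1 rose by 0.67 ± 0.11. With 6 h of withdrawal Ppargc1a rose by 0.38 ± 0.09 (adjusted p = 0.0106), while Ppargc1b changed by -0.49 ± 0.09 (adjusted p = 0.00418). Of the 15 regulators 4 fell and 1 rose there, against 7.48% of all genes lower and 6.78% higher. At 24 h of withdrawal 3 fell without 4OHT and 5 with it, and 0 rose, against 8.78% and 11.5% of all genes lower. Tfb1m, a mitochondrial ribosomal RNA methyltransferase, and Twnk, the mitochondrial DNA helicase, fell with withdrawal under 4OHT at 24 h, with log2 changes of -0.93 ± 0.13 and -0.62 ± 0.10. With both treatments against IL-7 alone 6 of the 15 fell and 1 rose, with a median of -0.06, against 15.4% of all genes lower and 18.1% higher, and 29.4% and 35.5% of genes at 9 or above. Whether any of these genes bears on the complex I genes was not tested.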

How the data were processed

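The members and gene lists were chosen with earlier results of these data known. Total RNA (150 ng per array) was labelled with Ambion and Affymetrix whole-transcript kits, per the labels' protocols. Affymetrix Expression Console 1.1 and RMA appear in the submitters' processing notes, and the authors deposited log2 values for 35556 probe sets, which were used unscaled. Of the probe sets 21789 carry 1 symbol, 1621 several and 12146 none in the annotation used. Differences were fitted with limma 3.58.1 in R 4.3.3 to the 14 arrays together, 1 mean for each group (7 residual and 4.83 prior degrees of freedom, two-sided) and adjusted by Benjamini-Hochberg over 19938 genes. The script was tested on simulated data. An exact permutation test of 2 against 2 arrays cannot go below p = 0.333, so calls rest on the spread pooled over groups and genes. The p-values measure the spread between arrays of 2 experiments in 1 line. The main fit, from which calls, adjusted p and ± are quoted unless the block is named, did not pair the arrays. Only the block fit took them as paired by experiment number, which the labels give as independent experiments. Same-numbered arrays deviated together in 21 of 21 pairs of groups (correlations of 0.124 to 0.631). Named genes were the core subunits, the Ndufaf genes and at most 8 called members per comparison, and at most 3 per other list. Values under the alternatives were counted only for named members, in comparisons where the member was called. Of the members 38 were matched to RefSeq promoters (GRCm38.p6). Alternatives were the experiment block, compared arrays only, quantile normalization, a filter on dim genes, mean probe sets, all probe sets in the adjustment, a trended variance prior and removal of each array.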

Additional observations from a re-analysis of the deposited data

Results flagged for a closer look

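The withdrawal effect on Ndufaf4 at 24 h differed with 4OHT by -0.80 ± 0.15 on the log2 scale (limma interaction, adjusted p = 0.0389), and this test of the difference is what set it apart. It was below 0 in both experiments, -0.72 and -0.87, and it did not pass when any 1 of the 8 arrays was left out.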

How the results depend on the processing

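No value for a named gene changed direction under any alternative, but this could hardly have come out otherwise. The genes counted here had all passed in the comparison concerned. The block, the compared arrays alone, all probe sets and the trended prior leave a difference as it is. Members called between 2 groups had groups that did not overlap, and removing 1 array cannot reverse such a difference. Of 543 values for 49 named gene results 425 kept their call and 118 lost it, 87 of these when an array was left out. With the experiment (replicate) block the number of members called became 10 in place of 1 for 6 h with IL-7 plus 4OHT against time 0, 15 in place of 5 for withdrawal at 6 h, 4 in place of 1 and 18 in place of 5 for 4OHT with and without IL-7, 21 in place of 9 for withdrawal at 24 h without 4OHT, and 2 in place of 0 for the difference of withdrawal effects between times. The block changed no other count by over 1.5 times. With all probe sets in the adjustment the counts were 0 for 6 h against time 0, 0 for 24 h against time 0, 0 for 4OHT with IL-7, 0 for the interaction, 2 for withdrawal at 6 h and 2 for 4OHT without IL-7. With the compared arrays only they were 0, 0 and 0 for the first 3 of these, and 2 for withdrawal at 6 h, 9 for 4OHT without IL-7 and 17 for withdrawal at 24 h without 4OHT. Renewed quantile normalization and a trended prior each gave 0 for 6 h against time 0, and quantile normalization moved the member median of withdrawal at 24 h without 4OHT from -0.21 to -0.20. It shifted the median of all genes by -0.08 at most.

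Leaving out single arrays gave counts of 0 to 1 for both comparisons with time 0, 3 to 6 for withdrawal at 6 h, 0 to 0 for 4OHT with IL-7 and for the interaction, 1 to 5 for 4OHT without IL-7, and 2 to 4 and 9 to 19 for withdrawal at 24 h without and with 4OHT. Member medians then ran from -0.27 to 0.039 (6 h against time 0), -0.18 to 0.14 (24 h against time 0), -0.28 to 0.021 (withdrawal at 6 h), -0.12 to -0.024 and -0.25 to -0.085 (4OHT with and without IL-7), -0.27 to -0.16 and -0.38 to -0.19 (withdrawal at 24 h without and with 4OHT), -0.19 to -0.033 (interaction), -0.46 to -0.29 (both treatments) and -0.27 to -0.043 (difference between times). The lone array left in a group is assumed to vary like the other groups. The limits are 2 arrays per group, an offset between experiments that all 42 members share, no detection calls, and RMA's assumption that most genes do not change, so that a shift common to all genes would not be seen.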
